A study of Mus musculus with 24 samples.

Results

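The 6 TRBJ2 segments used in these libraries, TRBJ2-1, TRBJ2-2, TRBJ2-3, TRBJ2-4, TRBJ2-5 and TRBJ2-7, were followed in the T cell receptor β chains (TCRβ) of 24 mouse tumors. They were taken by name: every TCRβ sequence with a call of a TRBJ2 segment, no stop or out-of-frame mark and a count of at least 2. This gave 43859 of 61290 clonotypes, summed over tumors, and 5858589 of 7462155 counts. A clonotype is here a CDR3 amino acid sequence with its V and J segment. No sequence carried TRBJ2-6, which the reference lists as a pseudogene. TCRβ RNA was amplified from whole tumors of female BALB/c mice, 7 to 9 weeks old when acquired, that carried a subcutaneous tumor in each flank. The tumors grew from a mouse colon carcinoma line whose labels give the cell line as CT26 and the genotype as CT26.CL25.

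Each group held 3 mice with 2 tumors each. In the time-matched mice (6, 12 and 14) both tumors were taken on day 13, without treatment. In the time-separated mice (4, 17 and 19), also untreated, 1 tumor was excised on day 9 and the other was taken on day 20. The decitabine mice followed the same schedule and received either 0.5 mg/kg (mice 3, 11 and 20) or 2 mg/kg (mice 7, 10 and 16) on 5 consecutive days, starting after the first tumor had been removed. Decitabine is an inhibitor of DNA methylation. The labels number the tumors 1 and 2 without saying which was early, so a mean over a decitabine mouse joins a tumor taken before treatment with one taken after it. After the filters the libraries held between 63289 and 887316 counts (median 206435), and the time-matched libraries held between 375861 and 610762. The tables list receptor sequences only, so the tumor cells could not be checked against markers. In RNA from whole tissue, fewer T cells of a clone and less receptor RNA per cell cannot be told apart.

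A TCRβ chain is assembled by joining a D segment to a J segment and then a V segment to the product. Bases are trimmed from the ends and added at random at each joint, and the joints encode the CDR3, the loop that contacts peptide in a major histocompatibility complex molecule. The TRBJ segments lie in a pair of clusters on mouse chromosome 6. TRBD1, the TRBJ1 segments and TRBC1 come first, followed by TRBD2, the TRBJ2 segments and TRBC2. A J segment supplies the last residues of the CDR3, so members of the cluster end their CDR3s with different motifs.

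The 6 segments are shown as these sequences carry them, since they set the CDR3 end, its length and the bases that could be trimmed. Each was read from the 3′ ends of the deposited sequences of that segment, from 5′ to 3′. Capitals mark the bases within the CDR3, through the codon of its last phenylalanine.
TRBJ2-1: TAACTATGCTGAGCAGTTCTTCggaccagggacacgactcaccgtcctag
TRBJ2-2: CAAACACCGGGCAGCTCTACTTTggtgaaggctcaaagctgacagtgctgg
TRBJ2-3: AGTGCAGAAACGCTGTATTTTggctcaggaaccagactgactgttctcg
TRBJ2-4: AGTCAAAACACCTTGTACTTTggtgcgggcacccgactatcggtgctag
TRBJ2-5: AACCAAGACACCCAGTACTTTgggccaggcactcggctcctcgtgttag
TRBJ2-7: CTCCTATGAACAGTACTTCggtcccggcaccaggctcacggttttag
Between 19 bases (TRBJ2-7) and 23 bases (TRBJ2-2) lie within the CDR3. Aligned from that codon, TRBJ2-4 and TRBJ2-5 were the most alike, with 16 of 21 bases equal. TRBJ2-4 and TRBJ2-7 shared 7 of 19.

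The cluster held most of every TCRβ repertoire. TRBJ2 made up 78.0% ± 9.71 of the counts of a mouse (SD, n = 12, each the mean of its tumors), and single tumors ranged from 56.2% in tumor 1 of mouse 10 to 96.7% in tumor 2 of mouse 16. Of the clonotypes it held 72.3% ± 5.12 (SD, n = 12). Many clonotypes of low count differed by 1 base from a clonotype at least 20 times larger in the same tumor. Merging such near variants into the larger sequence reduced the TRBJ2 clonotypes from 43859 to 25334, that is by 42.2%, and by between 29.1% and 59.8% in single tumors. The cluster then held 69.7% ± 3.69 of the clonotypes. Values after this merging are given beside the others.

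**Figure D1:**
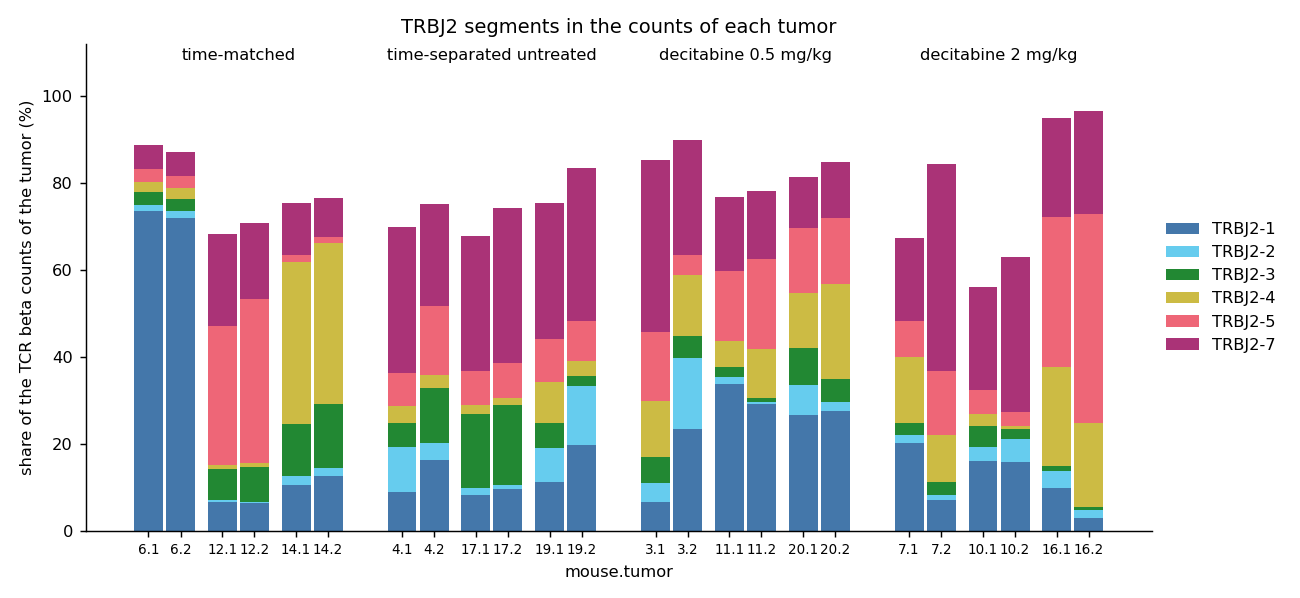
Share of the TCRβ counts of each tumor (%, linear axis) taken by each TRBJ2 segment, stacked, with tumors named by mouse and tumor number and ordered by group; the rest up to 100% is TRBJ1. The bars of a mouse are nearly alike in mice 6 and 17 and differ most in mice 3 and 7, and TRBJ2-1 takes 73.5% and 71.9% in the tumors of mouse 6.

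TRBJ2-7 was the most used segment and TRBJ2-2 the least, whichever way use was measured. TRBJ2-7 made up 23.2% ± 10.1 of counts, 20.2% ± 3.96 of clonotypes and 19.5% ± 2.52 of merged clonotypes (SD, n = 12 mice). TRBJ2-1 followed with 19.8% ± 18.3, 15.5% ± 5.40 and 14.8% ± 3.80. For TRBJ2-5 the same shares were 14.1% ± 12.3, 13.1% ± 5.42 and 12.1% ± 3.10. The means of TRBJ2-2, TRBJ2-3, TRBJ2-4, TRBJ2-5 and TRBJ2-7 rose in the order of the locus, in counts, clonotypes and merged clonotypes. TRBJ2-1, which lies first in the locus, stood apart, below TRBJ2-7 only. TRBJ2-4 held 10.6% ± 10.8 of counts and 9.41% ± 2.99 of merged clonotypes, and TRBJ2-3 held 6.35% ± 5.01 and 8.42% ± 1.43. TRBJ2-2 held 3.93% ± 3.59 of counts and 5.43% ± 1.02 of merged clonotypes.

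Neighbours in this order were compared within mice by an exact sign-flip permutation test over the 12 mice, two-sided, adjusted over all 66 pairs of TRBJ segments. By this exact test on merged clonotypes, TRBJ2-7 lay above TRBJ2-1 in 11 of 12 mice (adjusted p = 0.0197), TRBJ2-5 above TRBJ2-4 in 11 of 12 (adjusted p = 0.0401) and TRBJ2-3 above TRBJ2-2 in 11 of 12 (adjusted p = 0.00215). TRBJ2-1 and TRBJ2-5 (adjusted p = 0.161) and TRBJ2-4 and TRBJ2-3 (adjusted p = 0.368) missed the threshold in the exact test. Without merging, of the 5 neighbour pairs only TRBJ2-3 and TRBJ2-2 passed (exact test, adjusted p = 0.0458), and by counts none did. Over all pairs of members, 13 of 15 passed by merged clonotypes, where 86.4% of all TRBJ pairs did. By clonotypes 10 of 15 passed against 75.8%, and by counts 5 of 15 against 43.9%.

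Single tumors often departed from the order. TRBJ2-7 led the cluster in 11 of 24 tumors by counts, in 12 by clonotypes and in 17 by merged clonotypes. TRBJ2-1 led by counts in 7 tumors, TRBJ2-5 in 4 and TRBJ2-4 in 2. TRBJ2-2 was lowest in 13 tumors by counts and in 22 by merged clonotypes. Its share of counts ran from 0.346% in tumor 2 of mouse 11 through a median of 1.94% to 16.3% in tumor 2 of mouse 3, a 47.2-fold range, whereas merged clonotypes covered a 2.59-fold range. For TRBJ2-4 the lowest, median and highest share of counts were 0.820%, 7.69% and 37.5%, and for TRBJ2-5 they were 1.25%, 9.63% and 48.1%. TRBJ2-1 ran from 2.99% through 14.3% to 73.5%, and TRBJ2-3 from 0.627% through 5.12% to 18.4%. TRBJ2-7 varied least in relative terms, from 5.61% through 23.0% to 47.5%, an 8.48-fold range.

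**Figure D2:**
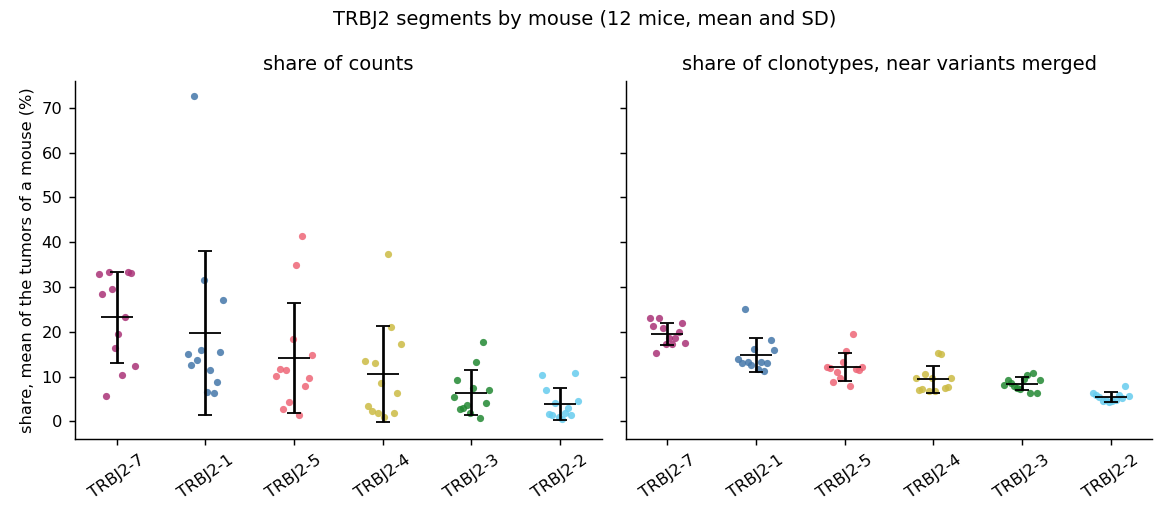
Share (%) of counts (left) and of merged clonotypes (right) for each TRBJ2 segment, on 1 linear axis, with a point per mouse (mean of its tumors) and the mean and SD of 12 mice in black. The order of the means is the same on both sides, and the spread is wider for counts; the highest TRBJ2-1 point is mouse 6.

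The shares of counts and of clonotypes of a TRBJ2 segment did not differ past the threshold. Share of counts minus share of clonotypes was tested per segment over 12 mice (exact sign-flip permutation test, adjusted over 12 TRBJ segments). No TRBJ2 segment passed, whereas 3 of all 12 TRBJ segments (25%) did, with or without merging. The differences were 4.24 ± 13.0 percentage points for TRBJ2-1 and 3.02 ± 6.36 for TRBJ2-7 at the top, and −1.63 ± 2.67 for TRBJ2-3 and −1.43 ± 1.74 for TRBJ2-2 at the bottom (SD, n = 12). TRBJ2-2 had the smallest adjusted p of the cluster, 0.0630. TRBJ2-1 in mouse 6 lay 42.4 points higher in counts than in clonotypes, the widest gap of any member. Removal of every mouse's largest clonotype lowered the mean TRBJ2-1 share of counts from 19.8% to 17.3% and its SD from 18.3 to 9.46, and lowered the TRBJ2-5 mean from 14.1% to 10.8%. The TRBJ2-7 mean was then 24.3%.

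To ask whether the interval between harvests bore on J use, the 3 time-matched mice were compared with all 9 time-separated mice. The cluster as a whole took 77.8% ± 9.37 of counts in time-matched mice (SD, n = 3) and 78.0% ± 10.4 in the others (SD, n = 9), a difference of −0.206 points (exact permutation test, two-sided, p = 0.991). Without the top clonotype of every mouse it was −10.4 points (exact permutation test, p = 0.0955), and as single mice were left out it ran from −5.30 to 3.93, positive without mouse 3, 12, 14, 16 or 20. None of the 12 TRBJ segments passed, in counts (0%), clonotypes (0%) or merged clonotypes (0%). A segment that differed alone could not have passed. The lowest adjusted p of the exact permutation test is then 0.0545, however far apart the mice lie. Unadjusted p-values below 0.05 numbered 3 in counts, 2 in clonotypes and 2 in merged clonotypes.

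TRBJ2-7 had the lowest p among the members. Time-matched mouse 6 had 5.66% and 5.61% of its counts in TRBJ2-7, mouse 12 had 21.2% and 17.6%, and mouse 14 had 11.9% and 8.98%. Of the untreated time-separated mice, mouse 4 had 33.7% and 23.4%, mouse 17 had 30.9% and 35.7%, and mouse 19 had 31.2% and 35.2%. These groups did not overlap, while the decitabine tumors, from 11.9% to 47.5%, overlapped with both. The time-matched mean of 11.8% ± 6.98 (n = 3) lay 15.2 points below that of the 9 time-separated mice, 27.0% ± 7.95 (exact permutation test, p = 0.0182, adjusted over 12 segments p = 0.127). In merged clonotypes the means were 17.1% ± 1.68 and 20.4% ± 2.25 (exact permutation test, n = 3 and 9, adjusted p = 0.218). In mouse 6 a single TRBJ2-1 clonotype held 56.1% and 56.3% of the counts, and its part in the difference was not tested. The time-matched libraries were also deeper at the median, with 594122 counts against 171996, 116796 and 368343 in the other groups. The deepest library, with 887316 counts, was however tumor 1 of mouse 16. The parts of depth, harvest day, surgery and decitabine in the TRBJ2-7 difference were not tested.

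Against the 3 untreated time-separated mice, an exact permutation test of 3 mice against 3 cannot give a p below 0.1. TRBJ2-7 was the 1 member whose time-matched and untreated mice did not overlap in counts, where 25% of all TRBJ segments did not. TRBJ2-4 held 13.1% ± 4.38 of counts in mice given 0.5 mg/kg decitabine and 3.85% ± 2.32 in untreated time-separated mice (exact permutation test, n = 3 each, p = 0.1, adjusted p = 0.6). This was the 1 segment of 12 without overlap (8.33%). By tumor pair, TRBJ2-4 took 12.9% and 14.1% (mouse 3), 5.89% and 11.3% (mouse 11) and 12.8% and 21.9% (mouse 20), against 1.67% to 9.49% in the 6 untreated tumors. Tumor 1 of mouse 11 thus overlapped with the untreated tumors. In mice 3 and 20 both tumors lay above them, and 1 of each pair was taken before treatment. In mouse 20, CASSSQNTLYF held 49.1% and 89.1% of the TRBJ2-4 counts. The part of decitabine in the difference was not tested. At 2 mg/kg, TRBJ2-3 held 2.46% ± 1.47 against 10.3% ± 6.89 in the untreated mice (exact permutation test, n = 3 each, p = 0.1, adjusted p = 0.6), and 16.7% of all segments did not overlap. TRBJ2-3 took between 0.627% and 4.91% in the tumors at 2 mg/kg and between 2.34% and 18.4% in the untreated ones, so single tumors did overlap. The comparisons with the untreated mice share those 3 mice.

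Tumors of the same mouse lay closer in TRBJ2 use by counts than they lay, at the median, to tumors of other mice, in 12 of 12 mice. The mean distance within a mouse was lowest in the time-matched group, by a difference that missed the threshold. The distance used was the summed absolute difference of the 6 shares within the cluster, scaled to run from 0 for equal use to 1 for no segment in common. By counts it was 0.00542, 0.0715 and 0.0619 between the tumors of time-matched mice 6, 12 and 14. Untreated time-separated mice 4, 17 and 19 had distances of 0.278, 0.0331 and 0.156. At 0.5 mg/kg it was 0.321, 0.122 and 0.107 in mice 3, 11 and 20, and at 2 mg/kg 0.331, 0.168 and 0.141 in mice 7, 10 and 16. Mouse 17 thus lay among the time-matched mice, and the 8 other time-separated mice lay above all of them. The mean was 0.0463 ± 0.0357 in time-matched and 0.184 ± 0.103 in the 9 time-separated mice, a difference of 0.138 (exact permutation test, n = 3 and 9, two-sided, p = 0.0545). With all libraries thinned to 63289 counts it was also 0.138 (exact permutation test, p = 0.05). Without mouse 17 the difference was 0.157 (exact permutation test, n = 3 and 8, p = 0.0121), and without mice 11 or 20 in turn the p was 0.0485 and 0.0424. Without mouse 6 the difference was 0.117 (exact permutation test, p = 0.109), and without mouse 12 or 14 the p was 0.0909. By Morisita-Horn dissimilarity it was 0.0752 (exact permutation test, p = 0.105). Of the 9 time-separated mice 6 had received decitabine. Against the 3 untreated ones alone, whose mean was 0.156 ± 0.122, the difference was 0.109 (exact permutation test, n = 3 each, p = 0.3), and 0.0481 to 0.171 as single mice were left out. Between tumors of different mice the median distance was 0.414 (0.108 to 0.823, 264 pairs), and 15 of 24 tumors were closest to their own pair.

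In merged clonotypes the distance was smaller than by counts in 9 of 12 mice and larger in mice 6, 17 and 19. Distances of the time-matched mice lay between 0.0380 and 0.0420, and in the time-separated mice between 0.0378 in mouse 20 and 0.191 in mouse 19, a difference of 0.0435 (exact permutation test, n = 3 and 9, p = 0.132). The tumors of mouse 19 were then farther from each other than from those of other mice, at a median of 0.152, as were the tumors of mouse 3, at 0.119 against 0.102. Segment by segment, the tumors of a time-matched mouse differed by at most 5.63 points of counts, in TRBJ2-5. In time-separated mice the widest differences were 28.4 points for TRBJ2-7 in mouse 7, 16.9 for TRBJ2-1 in mouse 3, 13.5 for TRBJ2-5 in mouse 16 and 12.0 for TRBJ2-2 in mouse 3. The 3 time-separated groups did not differ past the threshold in the distance by counts (exact permutation test, n = 3 each, p = 0.761) or by merged clonotypes (p = 0.829).

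**Figure D3:**
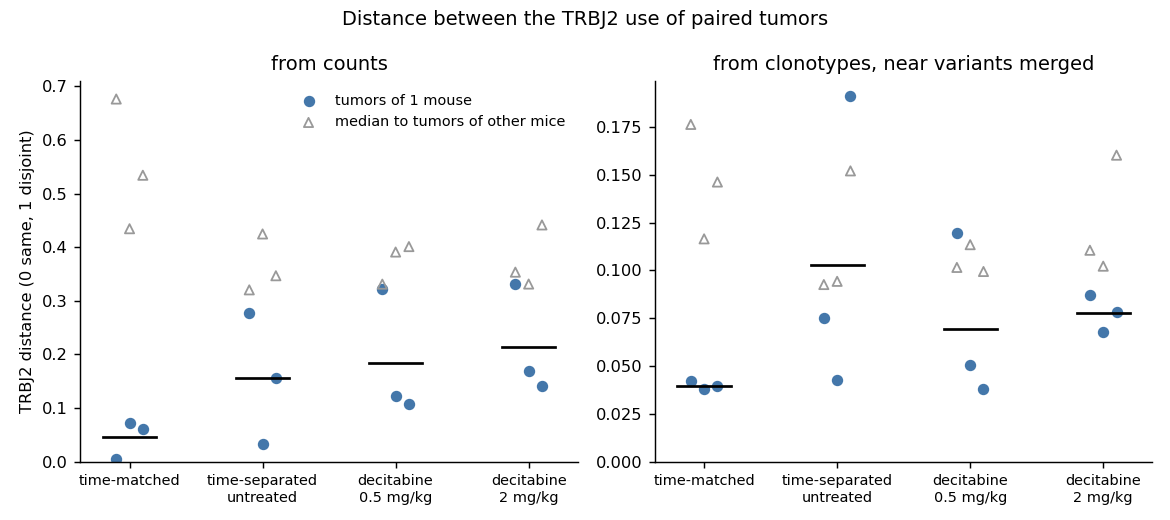
Distance between the TRBJ2 use of the tumors of a mouse (blue points, 1 per mouse, with the group mean as a line) and the median distance of those tumors to the tumors of other mice (open triangles), from counts (left) and merged clonotypes (right); the axes are linear and differ in scale. By counts the time-matched mice sit at 0.0715 or below and 8 of 9 time-separated mice above 0.1.

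Single clones carried much of these shares. Of all clonotypes of at least 1% of a tumor, counted per tumor, 247 of 325 used TRBJ2, and of those of at least 5%, 80 of 98 did, where the cluster held 72.3% of all clonotypes and 78.0% of counts. The largest clonotype used TRBJ2 in 22 of 24 tumors and in 11 of 12 mice: TRBJ2-1, TRBJ2-5 and TRBJ2-7 in 3 mice each and TRBJ2-4 in 2. In the remaining mouse, 10, the largest TRBJ2 clonotype ranked behind 1 other. The largest clonotype of a segment held a median of 34.1% of the counts of TRBJ2-7 in a tumor and between 39.8% and 46.5% for the other members. Its highest share was 89.1% of TRBJ2-4, in tumor 2 of mouse 20. TRBJ2-7 and TRBJ2-1 had a clonotype of at least 1% in 24 of 24 tumors, TRBJ2-5 in 19, TRBJ2-4 and TRBJ2-3 in 15 and TRBJ2-2 in 13.

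For 5 of the segments, the CDR3 of the largest clonotype in any tumor is given by its leading nucleotide sequence, since these held the largest share of the counts of a tumor among the clones of their segment. Capitals mark the 3′ bases that match the J segment.
TRBJ2-1 with TRBV17, mouse 6: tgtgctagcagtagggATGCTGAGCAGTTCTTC
TRBJ2-2 with TRBV17, mouse 3: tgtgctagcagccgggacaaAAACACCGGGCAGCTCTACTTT
TRBJ2-4 with TRBV13-1, mouse 14: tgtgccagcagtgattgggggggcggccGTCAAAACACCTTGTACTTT
TRBJ2-5 with TRBV13-2, mouse 16: tgtgccagcggtgaggcCACCCAGTACTTT
TRBJ2-7 with TRBV17, mouse 19: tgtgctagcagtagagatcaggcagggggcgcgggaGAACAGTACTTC
The TRBJ2-2 clone kept 22 bases of its segment and the TRBJ2-7 clone 12, the fewest of these 5.

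The TRBJ2-1 clonotype of mouse 6, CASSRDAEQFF, held 56.1% of the counts of tumor 1 (95% Clopper-Pearson interval 56.0 to 56.2%) and 56.3% of tumor 2 (56.1 to 56.4%). These intervals treat each count as an independent draw and cover no other error. The TRBJ2-5 clonotype of mouse 16, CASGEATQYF, held 30.0% and 33.1%, and that of mouse 12, with TRBV13-2 and 14 residues, held 23.6% and 28.2%. The TRBJ2-4 clonotype of mouse 14 held 25.0% and 21.2%. In these mice the leading clone had a similar share in both tumors, with ratios between 1.00 and 1.19.

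Elsewhere the leading TRBJ2 clone differed more between the tumors of a mouse. Mouse 7, given 2 mg/kg, had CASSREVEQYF (TRBV17, TRBJ2-7) at 0.606% of tumor 1 and 15.9% of tumor 2, a 26.3-fold ratio. The TRBJ2-1 clonotype of mouse 3, with TRBV19, held 2.65% and 16.1%, and its TRBJ2-2 clonotype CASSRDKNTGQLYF held 2.76% and 13.6%. In mouse 11, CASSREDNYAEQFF (TRBV17, TRBJ2-1) held 16.7% of tumor 1 and 3.83% of tumor 2. Mouse 20 carried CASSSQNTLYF (TRBV17, TRBJ2-4), which kept all 21 J bases of the CDR3, at 6.28% and 19.5%. In untreated time-separated mouse 4, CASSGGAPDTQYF (TRBV13-3, TRBJ2-5) held 2.02% and 8.51%. The TRBJ2-7 clonotype of mouse 19 held 7.78% and 19.7%, and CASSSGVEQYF (TRBV17, TRBJ2-7) in mouse 10 held 6.89% and 19.0%. Mouse 17 was the exception among the untreated time-separated mice: its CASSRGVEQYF (TRBV17, TRBJ2-7) held 15.5% and 16.6%.

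**Figure D4:**
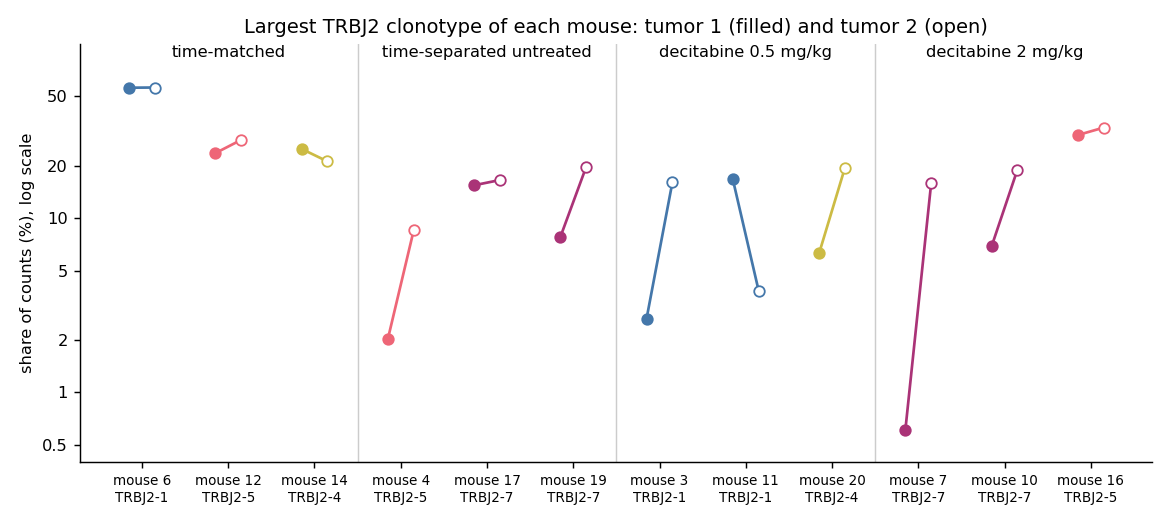
Share of counts (%, log axis) of the largest TRBJ2 clonotype of each mouse in tumor 1 (filled) and tumor 2 (open), coloured and labelled by segment, with mice ordered by group. The ratio between tumors is at most 1.19 in the time-matched mice and reaches 26.3 in mouse 7.

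Among the leading TRBJ2-7 clones, those of mice 7, 10 and 17 had the same build: TRBV17, 11 residues and the same 13 J bases.
Mouse 7: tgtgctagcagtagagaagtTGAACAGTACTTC
Mouse 10: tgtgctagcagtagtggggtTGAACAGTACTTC
Mouse 17: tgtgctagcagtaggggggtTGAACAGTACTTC
Clonotypes of TRBV17 and TRBJ2-7 with a CDR3 of 11 residues that starts CASS and ends VEQYF were therefore counted together, a set chosen after these values were seen and so not tested. They held between 0 and 24.3% of the counts of a tumor, with a median of 2.82%, and exceeded 1% in 14 of 24 tumors. Their share was 20.1% and 24.3% in mouse 17, 19.2% in tumor 2 of mouse 10 and 22.6% in tumor 2 of mouse 7. It was below 0.01% in both tumors of mice 4 and 6, although none of the groups was without it. The set took a median of 22.7% of the TRBJ2-7 counts of a tumor and at most 68.1%. At 1% or more of a tumor it held 9 different CDR3s, found in 8 mice.

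Identical nucleotide sequences also turned up across mice. Of the 55 TRBJ2 nucleotide sequences that reached at least 5% of a tumor, 46 were listed in at least 1 other mouse, and 3 of them in all 11 others. There they had a median of 4 counts, and 74.3% of these 292 listings held 10 counts or fewer. For sequences whose highest share lay between 1 and 5%, 34.4% were listed in another mouse, against 12.7% between 0.1 and 1% and 4.62% between 0.01 and 0.1%. Listing in other mice was thus more frequent for larger clones. Whether the low counts came from T cells of those mice or passed between libraries was not tested. The TRBJ2-7 clone of mouse 19, in which only 12 of 48 bases match the J segment, was listed in 12 of 12 mice with the same leading nucleotide sequence, at a median of 0.000723% of counts. Not all listings were low, and 4 of the 55 sequences exceeded 1% of a tumor in another mouse. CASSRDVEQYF (TRBV17, TRBJ2-7) reached 4.89%, with a median of 17 counts in 12 tumors of 7 other mice. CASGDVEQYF (TRBV13-2, TRBJ2-7) was listed at 40 to 13026 counts in 20 tumors of 10 other mice, up to 2.20%. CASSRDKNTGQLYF (TRBV17, TRBJ2-2) reached 1.35%, with a median of 2 counts in 8 tumors of 6 other mice, and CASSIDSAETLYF (TRBV19, TRBJ2-3) reached 1.17% in the 1 other mouse that held it.

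For each segment the clonotype found in most mice was as follows. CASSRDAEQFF (TRBJ2-1) was in 12 of 12 mice, at a median of 0.0138% of counts and with 3 different leading nucleotide sequences. The TRBJ2-4 clonotype of mouse 14 was also in 12 of 12, with 3 leading sequences and a median of 0.00118%. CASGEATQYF (TRBJ2-5) was in 11 of 12 with 1 leading sequence, and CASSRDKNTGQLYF (TRBJ2-2) in 7 of 12 with 2. These were large clones of mice 16 and 3. In other mice the nucleotide sequence of the former had 2 to 11 counts, and that of the latter a median of 2. The most widespread TRBJ2-3 clonotype, with TRBV14, was in 6 of 12 mice and had 4 leading sequences, 1 of which is
TRBJ2-3 with TRBV14: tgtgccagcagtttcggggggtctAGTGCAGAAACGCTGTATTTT
It held at most 0.0890% in any mouse. After merging, 13.9% ± 3.41 of the TRBJ2-7 clonotypes of a mouse were found in another mouse (SD, n = 12), against 13.0% ± 2.90 for TRBJ2-1 and 7.63% ± 2.29 for TRBJ2-2. Passage between libraries was not tested for these clonotypes or shares.

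No V segment passed the test for joining the TRBJ2 cluster more or less often than the others. Of the distinct clonotypes of a mouse, 71.0% ± 4.65 used TRBJ2 (SD, n = 12). For 15 TRBV segments with at least 20 clonotypes in each mouse, the TRBJ2 share was compared with that of all other V segments. None passed (exact sign-flip permutation test over 12 mice, adjusted over 15 segments, 0%), and none did after merging (0%). With sequences of 1 count kept 3 passed, without mouse 10 there were 4 and without mouse 14 there was 1. Unadjusted p-values below 0.05 numbered 3 without and 6 with merging. The lowest p was that of TRBV1, with a TRBJ2 share of 63.8% ± 5.97 against 71.4% ± 4.91 (exact test, adjusted p = 0.117), lower in 10 of 12 mice. After merging it was that of TRBV19, 63.5% ± 3.78 against 69.6% ± 4.03 (exact test, adjusted p = 0.0806), lower in 11 of 12.

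The V partners of a member were mostly the V segments common in all clonotypes, and the order of the leading 3 changed with merging for TRBJ2-2, TRBJ2-5 and TRBJ2-7. Without merging, TRBV17, TRBV13-1 and TRBV19 were the 3 most frequent among TRBJ2-1 clonotypes, with 17.0% ± 14.9, 14.2% ± 11.8 and 12.8% ± 9.55 (SD, n = 12 mice), where all clonotypes held 12.8%, 16.6% and 7.91%. TRBJ2-2 was led by TRBV17, TRBV13-1 and TRBV13-2, and TRBJ2-7 by TRBV17, TRBV13-2 and TRBV13-1. TRBJ2-3 and TRBJ2-4 were both led by TRBV13-1, TRBV13-2 and TRBV19. TRBV13-1 made up 22.8% ± 20.7 of TRBJ2-4 clonotypes and reached 77.1% in 1 mouse. For TRBJ2-5 the leading V segments were TRBV13-1 with 20.8% ± 10.4, TRBV13-2 with 18.1% ± 15.9 and TRBV5 with 9.81% ± 6.02. After merging, TRBJ2-5 was led by TRBV13-2 with 18.7% ± 13.2, ahead of TRBV13-1 with 13.8% ± 5.46. Merged TRBJ2-7 clonotypes were led by TRBV13-2 with 15.1% ± 5.47, ahead of TRBV17 with 12.6% ± 6.53, and merged TRBJ2-2 clonotypes by TRBV13-1 with 13.2% ± 4.92, ahead of TRBV17 with 12.5% ± 9.69. No test was run on these partners, whose SD was often as large as their mean. Over the 24 tumors, clonotype shares relative to each segment's own mean were most alike between TRBJ2-7 and TRBV19, with a mean absolute log2 difference of 0.35 among 27 segments compared. TRBJ2-1 was most like TRBV17 (0.44), TRBJ2-4 (0.51) and TRBJ2-5 (0.36) most like TRBV13-2, TRBJ2-2 most like TRBJ2-7 (0.52) and TRBJ2-3 most like TRBJ1-1 (0.44). These are descriptions, and segments joined in the same clonotypes share those clonotypes.

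The D segment call differed between the clusters. Among merged sequences with a D call, TRBD2, which lies just before the TRBJ2 cluster, was called in 56.7% ± 3.18 of TRBJ2 sequences (SD, n = 12) and in 12.2% ± 2.18 of TRBJ1 sequences. A D segment was called in 80.0% of TRBJ2 and 70.7% of TRBJ1 sequences. TRBD2 lies behind the TRBJ1 segments, and the accuracy of the D calls was not tested. TRBJ2-2 had the lowest mean of the members, 39.9% ± 6.88, and the other 5 lay between 56.0% and 61.3%. The C call did not separate the clusters: TRBC1 was called for 99.998% of TRBJ2 counts and TRBC2 for 0 sequences. The constant gene of these chains can therefore not be read from the tables.

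Each TRBJ segment was compared in CDR3 length with all other TRBJ segments, and members were not tested against each other. TRBJ2-7 clonotypes averaged 12.6 ± 0.634 amino acids (SD, n = 12 mice), against 14.0 ± 0.303 in clonotypes of all other TRBJ segments, a difference of −1.42 (exact sign-flip permutation test, lower in 11 mice, adjusted p = 0.00293). TRBJ2-2 clonotypes averaged 14.8 ± 0.791 and were 1.18 longer than the rest (exact test, adjusted p = 0.00195). TRBJ2-3 clonotypes were 0.897 longer (exact test, adjusted p = 0.00195), and both were longer in 12 of 12 mice. TRBJ2-4 was 0.886 longer, in 11 of 12 mice (exact test, adjusted p = 0.0110). TRBJ2-5, 0.459 longer, missed the threshold (exact test, adjusted p = 0.104), as did TRBJ2-1 at 0.120 (adjusted p = 0.651). The call was thus made for 4 of 6 members, the same share as the 66.7% of all TRBJ segments, and after merging for the same number of members and 75%. The TRBJ2-7 difference after merging was −1.23 residues, in 12 of 12 mice. In the merged clonotypes of all tumors, 15 residues was the commonest length for TRBJ2-1, TRBJ2-2 and TRBJ2-3, 16 for TRBJ2-4, and 14 for TRBJ2-5 and TRBJ2-7. TRBJ2-1 and TRBJ2-7 had a further share at 11 residues, 17.5% and 18.7%. The tumors of mouse 6, whose leading TRBJ2-1 clone has that length, supplied 592 and 445 of the 5394 merged TRBJ2-1 clonotypes. The part of mouse 6 in the TRBJ2-1 share at 11 residues was not tested. Of the merged TRBV17 and TRBJ2-7 clonotypes, 61.2% of 887 had that length.

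Trimming of the J segment differed between members. The bases missing from its 5′ end were counted in merged nucleotide sequences, as the CDR3 part of the segment less its unbroken match at the 3′ end. A base equal to the segment by chance counts as kept, and a misread base counts as the end of the match. TRBJ2-3 lost the fewest bases, 2.34 ± 0.612 (SD, n = 12 mice), and was untrimmed in 41.1% of its sequences. TRBJ2-1 lost 5.50 ± 1.44 and was untrimmed in 8.46%. The means were 5.01 for TRBJ2-7, 4.16 for TRBJ2-5, 3.57 for TRBJ2-4 and 3.56 for TRBJ2-2. Of 15 pairs of members, 10 differed (exact sign-flip permutation test over 12 mice, adjusted over 66 TRBJ pairs), where 59.1% of all pairs did. TRBJ2-3 differed from each of the other 5, with adjusted p between 0.00201 and 0.0131. With only sequences of at least 10 counts, all 6 means were lower, from 1.49 for TRBJ2-3 to 3.94 for TRBJ2-7, and the 10 pairs kept their direction among 12 that passed. TRBJ2-7 enters the CDR3 with the fewest bases of the cluster and lost more of them than TRBJ2-2, TRBJ2-3, TRBJ2-4 and TRBJ2-5 did, so that it supplied 14.0 ± 0.645 bases on average against 19.4 ± 1.01 for TRBJ2-2. The bases 5′ of the kept part numbered 24.3 ± 0.863 for TRBJ2-7 and between 24.7 and 25.8 for the other members.

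**Figure D5:**
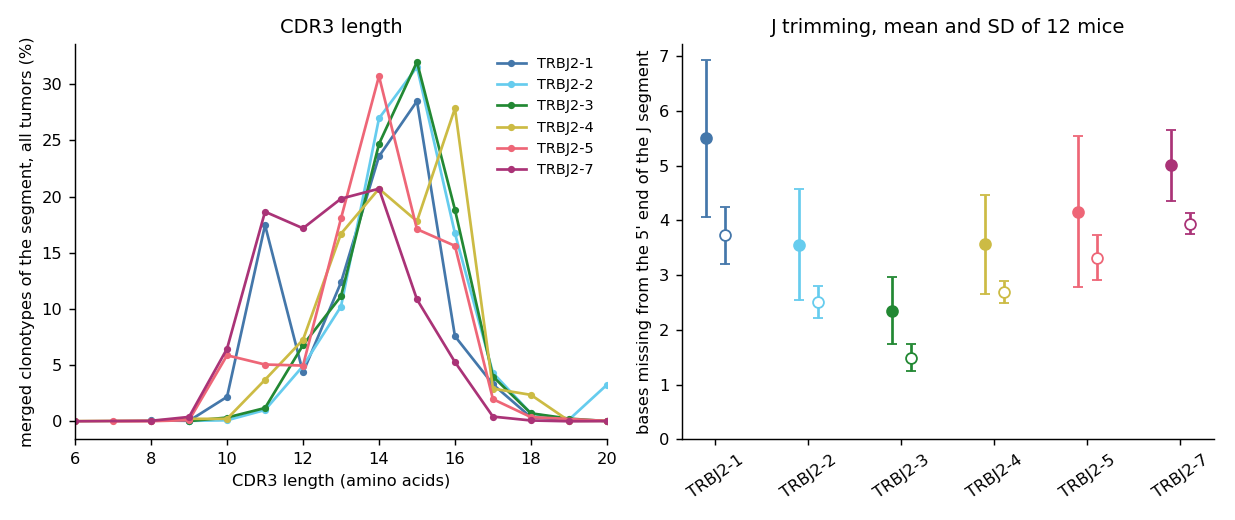
Left, share (%) of the merged clonotypes of each TRBJ2 segment, summed over 24 tumors, at each CDR3 length in amino acids; right, bases missing from the 5′ end of the segment (mean and SD of 12 mice) in all merged sequences (filled) and in those of at least 10 counts (open). TRBJ2-7 and TRBJ2-1 peak a second time at 11 residues, and TRBJ2-3 is trimmed least in both sets.

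Productive sequences were compared in J use with sequences that cannot make a receptor. Both came from RNA of whole tumors, so J use before selection on a working chain was not measured. The stop or out-of-frame mark was on 28726 sequences of at least 2 counts. However, 79.1% of them had a CDR3 length that was a multiple of 3, and 74.0% contained an unread base, so most were not out-of-frame joints. By this mark no TRBJ segment differed in its share of sequences between productive and marked ones (exact sign-flip permutation test over 12 mice, 0%). Near variants were merged only at equal length, so a copy of a productive sequence that gained or lost a base would count as out-of-frame. With out-of-frame sequences alone, near variants merged, 3029 remained, between 28 and 204 in a tumor, and 8.33% of the TRBJ segments passed, none of them a member. The 1 that passed was TRBJ1-6, which had 0 out-of-frame sequences in each of the 12 mice, so that its call is a comparison with a count of 0. TRBJ2-5 came nearest, with 12.2% ± 3.75 of productive and 17.6% ± 6.90 of out-of-frame sequences (exact sign-flip permutation test, n = 12, p = 0.0249, adjusted p = 0.149), lower among productive sequences in 10 of 12 mice. For TRBJ2-3 the shares were 8.26% and 11.0%, and for TRBJ2-7 20.1% and 18.7%.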

How the data were processed

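TCRβ libraries with unique molecular identifiers were prepared from total RNA of 24 tumors. The authors ran the identifier-based analysis and clonotype calling of Cogent NGS Immune Profiler and deposited 1 unnormalized read count per sequence. Whether the deposited column counts reads before or after merging by identifier, and the genome build, are not given in the sources used here. TCRα tables were not used.

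Left out were sequences marked for a stop codon or frame, those with under 2 counts and 73 without a TRBJ call. Shares were computed per tumor and averaged per mouse, the unit of every test of groups or segments; outlying tumors were sought among single tumors. Intervals are 95% Clopper-Pearson and treat each count as an independent draw, which reads not merged by identifier would not be. They cover no other error. Groups were compared by exact permutation of mice and paired values by exact sign flips, all two-sided, with Benjamini-Hochberg adjustment over 12 TRBJ or 15 TRBV segments or 66 pairs. With 3 mice against 9, the smallest p is 0.00455. TRBJ order and names were taken from RefSeq (GRCm38.p6). Clones were named as the largest TRBJ2 clonotype of each mouse, the largest and the most shared of each segment. 1 of these is not reported here. Merging of near variants and out-of-frame comparisons were added after the data were seen. The members, lists and tests were chosen with earlier results of these data known. Scripts were tested on simulated data. Computations ran in Python 3.11.15 with pandas 2.3.3, scipy 1.17.1 and numpy 2.4.6; figures were drawn with matplotlib 3.10.9.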

Additional observations from a re-analysis of the deposited data

Results flagged for a closer look

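Within each group of 6 tumors, a tumor far from the others was looked for by Dixon's test in the shares of counts, clonotypes and merged clonotypes of each TRBJ2 segment and of the cluster. Of 84 such sets, 10 held one, and chance gives about 1 in 20 for 6 independent values. That rate does not hold here, since the 6 tumors are pairs from 3 mice and the sets overlap. Tumor 2 of mouse 19 accounted for 4, all highest among the untreated time-separated tumors: TRBJ2-1 with 24.8% of merged clonotypes (next 14.7%), TRBJ2-2 with 9.67% of merged clonotypes (next 6.51%), and the cluster with 80.7% of clonotypes (next 72.0%) and 78.0% of merged clonotypes (next 69.9%). Tumor 1 of mouse 19 was highest for TRBJ2-4, with 9.49% of counts (next 3.76%), and tumor 2 of mouse 4 for TRBJ2-5, with 15.8% of counts (next 9.94%). In the group given 0.5 mg/kg, tumor 2 of mouse 3 was lowest for TRBJ2-5, with 4.53% of counts (next 14.8%) and 9.48% of clonotypes (next 13.4%), and tumor 1 of mouse 3 was lowest for TRBJ2-1, with 9.36% of clonotypes (next 17.6%). In the group given 2 mg/kg, tumor 2 of mouse 16 was lowest for TRBJ2-1, with 9.46% of merged clonotypes (next 12.1%).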

How the results depend on the processing

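The 13 results were recomputed with a minimum of 1 or of 10 counts, nucleotide clonotypes, CDR3s from C to F only, all libraries thinned to 63289 counts, the top clonotype of every mouse removed, other distances, at least 50 clonotypes per V segment and mouse, each mouse left out in turn, and near variants merged. Of 248 values, 213 kept their direction and their side of the threshold or, for numbers of segments called, stayed within 1.5 times the reported number; single segments can change side within that range, as where the 3 segments with differing counts and clonotypes became 2 or 4 and the 8 with differing CDR3 length became 9. Neither a filter on rare TRBJ segments nor its absence changed the 12 tested, since none fell under it. The distance between tumors, 0.138 (exact permutation test, n = 3 and 9, p = 0.0545), became 0.137 with a minimum of 1 count (p = 0.0455) and 0.126 without the top clonotypes (p = 0.0273), and ran from 0.117 to 0.157 as single mice were left out, with p below 0.05 without mice 11, 17 or 20 and as high as 0.109, without mouse 6. It was 0.0752 by Morisita-Horn dissimilarity (exact permutation test, p = 0.105) and 0.0590 from shares of clonotypes (p = 0.0727). Against untreated time-separated mice alone it was 0.109 (exact permutation test, p = 0.3), and 0.0481 to 0.171 without single mice. The difference in cluster share between time-matched and untreated mice, 3.51 points, was −4.24 without the top clonotypes and −1.59 to 7.64 without single mice, turning without mouse 6. Against all 9 time-separated mice it was −0.206, −10.4 without the top clonotypes (exact permutation test, p = 0.0955) and −5.30 to 3.93 without single mice, turning without mouse 3, 12, 14, 16 or 20. Neither difference in cluster share passed under any of these. Segments whose counts and clonotypes differed numbered 3 of 12, 0 without the top clonotypes, and 2 to 5 without single mice (5 without mouse 17). For productive against marked sequences the number was 0, but 2 with a minimum of 1 count, 1 with near variants merged, 1 with out-of-frame sequences only and 1 with out-of-frame sequences free of N after merging, and 0 to 2 without single mice (2 without mouse 20). TRBV segments called numbered 0, but 3 with a minimum of 1 count and 0 to 4 without single mice (1 without mouse 14, 4 without mouse 10). Of 5 neighbour pairs in the order, 1 passed by clonotypes. The number was 0 with a minimum of 1 count or with nucleotide clonotypes, 2 with a minimum of 10 counts or CDR3s from C to F only, 3 with near variants merged, and 0 to 1 without single mice. The cause of these changes was not tested. No paired analysis was possible between groups, because they share no mouse numbers; pairing was used within mice only. Depth limits the rarest clonotypes: 3 counts are 0.00474% of the smallest library.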
